A study of Mus musculus with 2 samples.

Results

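The orexin and melanin-concentrating hormone (MCH) system of the mouse hypothalamus was represented by 7 genes. They were Hcrt (orexin precursor), Pmch (MCH precursor), the receptor genes Hcrtr1, Hcrtr2 and Mchr1, and the genes Lhx9 and Nptx2, whose products are found in orexin neurons. The genes were taken by symbol or older symbol, with no threshold on their values. They were read by 11 of the 41174 probes on the array, which covered 21506 named genes. Hcrtr2 and Lhx9 had 3 probes each, Mchr1 was listed under its older symbol Gpr24, and 1 Lhx9 probe was listed under a clone name.

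The study measured hypothalamic transcripts in mice given bezafibrate, a fibrate drug that activates PPAR nuclear receptors, and in control mice. Per the labels, mice aged 8 weeks received a normal diet for 2 weeks and then the same feed with 0.5% bezafibrate for 2 weeks, and were later returned to normal diet for 5 weeks. The labels do not settle at which of these stages tissue was taken, and they give no genotype, strain or sex and no description of the control mice beyond that word. The 4 groups were control at ZT10, bezafibrate at ZT10, control at ZT22 and bezafibrate at ZT22, where ZT counts the hours from lights on, so that ZT10 falls late in the light phase and ZT22 late in the dark phase of a usual cycle. Each group was 1 pool of hypothalamus from 4 mice, cut as a block of brain and hybridized to 1 one-colour array from 400 ng of total RNA. With 1 array per group there was no replicate, so pairs of arrays were compared without a test, and the number of arrays limits the precision. Each log2 ratio carries after ± the scanner error, combined from the errors the scanner software gave both spots, and the variation of mice and of pools is not part of it.

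Orexin neurons and MCH neurons are separate, intermingled cell groups of the lateral hypothalamus that send fibres to most of the brain. Orexins act through the G-protein-coupled receptors Hcrtr1 and Hcrtr2, keep animals awake and rouse feeding and energy use, and the loss of orexin signalling gives narcolepsy. MCH acts in rodents through Mchr1, favours feeding and weight gain, and its neurons are active in sleep, above all in REM sleep.

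The promoters of both precursors are shown because Hcrt and Pmch each had their lowest signal in the control pool at ZT22 under 6 of 6 ways of scaling or background treatment, and their highest in the bezafibrate pool at ZT22 under 5 of them. The order of the ZT10 pools of Hcrt and Pmch was not shared under each. This pattern was not particular to the precursors. The brightest Hcrtr2 probe had the same counts, and the second Lhx9 probe had the same highest and lowest pools under 6 of 6. The sequences are from RefSeq (assembly GRCm38.p6), hold the 250 bases before the annotated start, and run 5′ to 3′ on the gene's strand, which is minus for Hcrt and plus for Pmch. The capitals mark TATAAA, the letters of a TATA box.

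Hcrt, chr11:100762932-100763181: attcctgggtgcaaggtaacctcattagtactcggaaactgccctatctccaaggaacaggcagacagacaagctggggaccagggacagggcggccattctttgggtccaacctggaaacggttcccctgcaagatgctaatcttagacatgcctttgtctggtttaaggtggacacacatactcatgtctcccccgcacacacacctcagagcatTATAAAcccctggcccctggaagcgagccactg
Pmch, chr10:88090822-88091071: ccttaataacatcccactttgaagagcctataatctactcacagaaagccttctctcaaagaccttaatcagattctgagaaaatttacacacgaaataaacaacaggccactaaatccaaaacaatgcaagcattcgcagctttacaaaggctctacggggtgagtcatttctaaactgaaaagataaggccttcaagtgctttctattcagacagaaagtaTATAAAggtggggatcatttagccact

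TATAAA began 33 bases before the start of Hcrt and 27 bases before that of Pmch, both on the gene's own strand. Searched on both strands of the 250 bases, it was found in 12.4% of 32851 mouse promoters. RefSeq promoters were matched for 6 of the 7 genes, and none of the 4 other genes so matched held TATAAA. The other letters searched were CACGTG (an E-box, in 6.02% of promoters), TTATGTAA (a D-box, 0.819%), AGGTCA (a nuclear receptor half-site, 14.0%), the direct repeat of AGGTCA with 1 base between (the PPAR element, 0.0335%), TAATTA (a homeodomain core, 4.84%) and TGTTTAC (a forkhead core, 3.17%). Every match of the repeat also holds AGGTCA. None of these 6 was found in the Hcrt or Pmch promoter. AGGTCA was found once in a promoter of Hcrtr1 and once in that of Hcrtr2, and CACGTG was found once in that of Mchr1, 193 bases before its start. A match describes letters and is no measured binding.

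The 4 arrays shared 1 slide, with the control pools at positions 2 and 1 and the bezafibrate pools at positions 4 and 3, so diet cannot be told apart from the side of the slide. Of 43379 features that were not controls, 68.7% to 74.6% were well above background on each array and 0 were saturated. Each value below is the processed signal, an intensity, divided by the 75th percentile of its array. That percentile was 1010, 1050, 1010 and 893 units for control ZT10, bezafibrate ZT10, control ZT22 and bezafibrate ZT22, the order used for every set of 4 values. Of 15 marker genes of hypothalamic nuclei, 14 were well above background on all 4 arrays, and the exception, Otp, was so on the bezafibrate ZT22 array alone. The summed level of these markers ran from 14.8 to 16.0 times the 75th percentile.

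None of the 7 genes differed by 1.5-fold between the diets or between the times when read by its brightest probe. For bezafibrate against control at ZT10 the count was 0 of 7, where 3.8% of 17311 genes passed 1.5-fold. At ZT22 it was 0 of 6, against 5.51% of 16959 genes. For ZT22 against ZT10 it was 0 of 7 in control mice, against 6.48% of 17415 genes, and 0 of 6 in bezafibrate mice, against 5.46% of 16775 genes. At such shares a set of this size would hold few genes past the threshold, so counts of 0 do not set these genes apart from the rest.

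**Figure D1:**
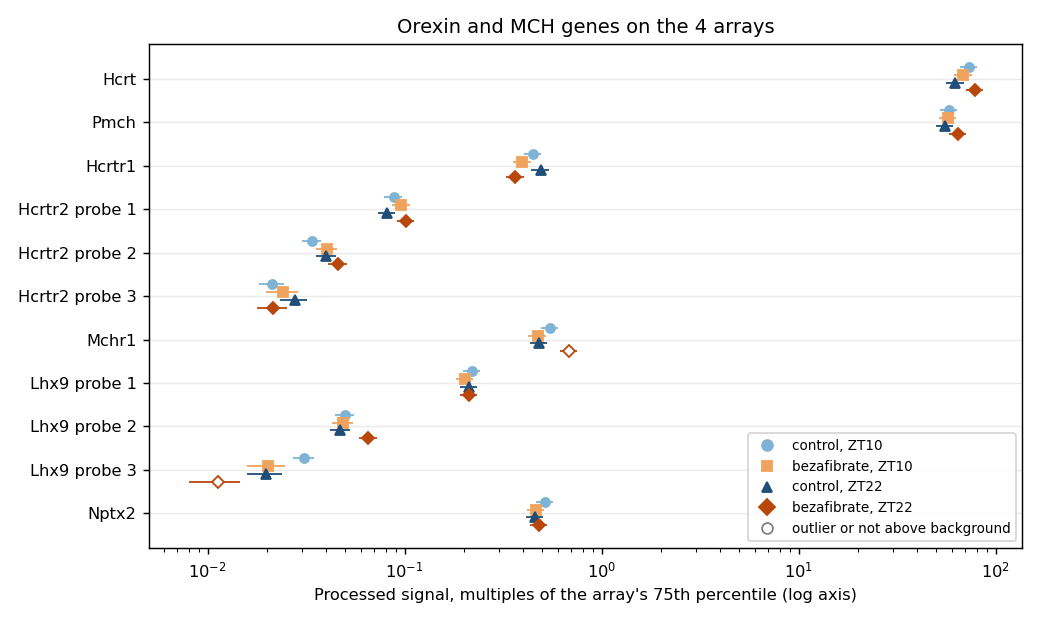
Processed signal of each of the 11 probes on the 4 arrays, as multiples of the array's 75th percentile on a log axis; 1 point is 1 array of 1 pool, and bars are the scanner error. For most probes the 4 points lie within a narrow band, such as 62.5 to 78.2 for Hcrt; open points are an outlier spot (Mchr1) and a spot not well above background (Lhx9 probe 3). Levels of different probes are not comparable.

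Hcrt encodes the single precursor of both orexin peptides. Its signal was 72.9, 68.6, 62.5 and 78.2 times the 75th percentile. It was thus highest in the bezafibrate pool at ZT22 and lowest in the control pool at ZT22, with both ZT10 pools between them. Bezafibrate against control gave a log2 ratio of -0.09 ± 0.20 at ZT10 and 0.32 ± 0.20 at ZT22, the latter a 1.25-fold higher signal. ZT22 against ZT10 gave -0.22 ± 0.20 in control mice and 0.19 ± 0.20 in bezafibrate mice. The diet ratio at ZT10 and the time ratio in bezafibrate mice were within the scanner error, and the signs were opposite within each pair. The difference between the diet ratios at ZT22 and ZT10 was 0.41 ± 0.29, which no test could address with these arrays.

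The order of the Hcrt levels rested on the scaling between arrays. Unscaled, the Hcrt intensities were 73600, 72000, 63100 and 69800 units, and the control pool at ZT10 was highest. The control pool at ZT22 stayed lowest under each of the 6 ways of scaling or background treatment compared, and the bezafibrate pool at ZT22 was highest under 5 of them. The diet ratio of Hcrt at ZT22 ran from 0.15 without scaling to 0.34 with median scaling. The spot was read from the low-gain scan on all 4 arrays, as were the spots of Pmch. In bulk tissue, fewer cells of a type and less RNA per cell cannot be told apart, which applies to every gene described here.

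Pmch encodes the precursor of MCH. Its signal was 57.9, 57.4, 55.4 and 64.4 times the 75th percentile. The bezafibrate pool at ZT22 was again highest and the control pool at ZT22 lowest, with the ZT10 pools close to each other. The log2 ratio of bezafibrate against control was -0.01 ± 0.20 at ZT10 and 0.22 ± 0.20 at ZT22. Between the times it was -0.06 ± 0.20 in control mice and 0.17 ± 0.20 in bezafibrate mice. Only the diet ratio at ZT22 exceeded the scanner error, and by a small margin. The sign of the Pmch diet ratio at ZT10 changed under 3 of the alternatives. Without scaling the Pmch intensities were 58500, 60300, 56000 and 57500 units, and the diet ratio at ZT22 was 0.04.

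Hcrt and Pmch are made by different neurons, and their ranges over the 4 arrays were under 1.5-fold. The highest Hcrt signal was 1.25 times the lowest, a range of 0.32 on the log2 scale, and that of Pmch was 1.16 times, a range of 0.22. Over 1777 genes whose mean signal reached 10 times the 75th percentile, the median range was 0.14 and the 90th percentile 0.28. The range of Hcrt therefore lay above the 90th percentile of bright genes, and that of Pmch lay between the median and that mark.

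Hcrtr1 encodes the orexin receptor that prefers orexin A and couples to Gq proteins. Its signal was 0.447, 0.396, 0.489 and 0.365 times the 75th percentile. Both control pools were above both bezafibrate pools. The log2 ratio of bezafibrate against control was -0.17 ± 0.20 at ZT10 and -0.42 ± 0.20 at ZT22, so the signal of the control pool at ZT22 was 1.34-fold that of the bezafibrate pool. Between ZT22 and ZT10 it was 0.13 ± 0.20 in control mice and -0.12 ± 0.20 in bezafibrate mice. The diet ratio at ZT22 was the largest in size among the brightest probes of these genes, and the one such ratio past 2 times its scanner error.

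The direction of the Hcrtr1 diet ratios was the same under each of the 10 alternatives computed. They ran from -0.26 to -0.12 at ZT10 and from -0.60 to -0.33 at ZT22. Outlier spots kept, the mean of all probes and the signal filter could not change them. Hcrtr1 has a single probe without an outlier spot, and the filter only drops genes. The value of -0.60, from signals without scaling, is past 1.5-fold. The control pool at ZT22 was highest and the bezafibrate pool at ZT22 lowest under 6 of 6 ways of scaling or background treatment. The authors' deposited table gave Hcrtr1 ratios of 0.836 at ZT10 and 0.709 at ZT22.

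Hcrtr2 encodes the receptor that binds both orexins and whose loss causes narcolepsy in dogs. Its brightest probe read 0.0877, 0.0962, 0.0813 and 0.101 times the 75th percentile. Both bezafibrate pools were above both control pools, the reverse of Hcrtr1. The log2 ratio of bezafibrate against control was 0.13 ± 0.21 at ZT10 and 0.32 ± 0.21 at ZT22, and that of ZT22 against ZT10 was -0.11 ± 0.21 in control mice and 0.08 ± 0.21 in bezafibrate mice. The second probe read 0.0338, 0.0403, 0.0400 and 0.0457 times the 75th percentile. It too was higher with bezafibrate at each time, by 0.25 ± 0.23 and 0.19 ± 0.23 on the log2 scale. The third probe, at 0.0213, 0.0242, 0.0276 and 0.0215, had a diet ratio of 0.18 ± 0.34 at ZT10 and -0.36 ± 0.33 at ZT22. With normexp background both of its signs turned, to -0.04 at ZT10 and 0.19 at ZT22, so its direction depends on the background treatment. The mean ratio over the 3 Hcrtr2 probes was 0.05 at ZT22.

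Mchr1 encodes the one MCH receptor that mice have. Its signal was 0.549, 0.472 and 0.478 times the 75th percentile in control ZT10, bezafibrate ZT10 and control ZT22. The control pool at ZT10 was highest of the 3. The log2 ratio of bezafibrate against control at ZT10 was -0.22 ± 0.20, and that of ZT22 against ZT10 in control mice was -0.20 ± 0.20. On the bezafibrate ZT22 array the software marked the only Mchr1 spot as an outlier, so this gene has no value there and no diet ratio at ZT22.

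The outlier spot shows how the reading of a spot decided the Mchr1 value. Its median pixel signal was 407 units against 408 on the control ZT22 array. Its processed signal was 607 units against 483. Kept in, the spot would give Mchr1 a scaled diet ratio of 0.51 at ZT22 on the log2 scale. The median signals less local background were nearly equal, at 357 units with bezafibrate and 358.5 in control. They give a ratio of 0.17 only through the scaling between the arrays. The authors' deposited table holds a ratio of 1.35 for Mchr1 at ZT22.

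Lhx9 encodes a LIM homeodomain transcription factor that promotes the orexin fate. Its brightest probe read 0.220, 0.203, 0.212 and 0.212 times the 75th percentile. The 4 pools were nearly level, with a range of 0.12 on the log2 scale, against a median range of 0.20 over 15916 genes well above background on all arrays. Bezafibrate against control gave -0.12 ± 0.21 at ZT10 and -0.00 ± 0.21 at ZT22. The second probe, listed under the clone name 3110009O07Rik, read 0.0498, 0.0488, 0.0471 and 0.0654 and gave a diet ratio of 0.47 ± 0.23 at ZT22. The third probe read 0.0309, 0.0202, 0.0198 and 0.0113, and the last was not well above background. Its diet ratio was -0.61 ± 0.36 at ZT10, past 1.5-fold, but -0.11 with normexp background. Its time ratio in control mice was -0.64 ± 0.34, also past 1.5-fold, but -0.06 with normexp background. The ratios that use the bezafibrate ZT22 array were -0.81 ± 0.51 for diet and -0.84 ± 0.52 for time. Both rest on a signal not well above background. The 3 Lhx9 probes thus disagreed, and those with ratios away from 0 were the dimmer ones.

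Nptx2 encodes neuronal pentraxin 2 (Narp), a secreted protein that clusters AMPA receptors at synapses. Its signal was 0.515, 0.465, 0.458 and 0.482 times the 75th percentile. The control pool at ZT10 was highest and the other 3 were close together. The log2 ratio of bezafibrate against control was -0.15 ± 0.20 at ZT10 and 0.07 ± 0.20 at ZT22, and that of ZT22 against ZT10 was -0.17 ± 0.20 in control mice and 0.05 ± 0.20 in bezafibrate mice. All 4 Nptx2 ratios were within the scanner error.

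**Figure D2:**
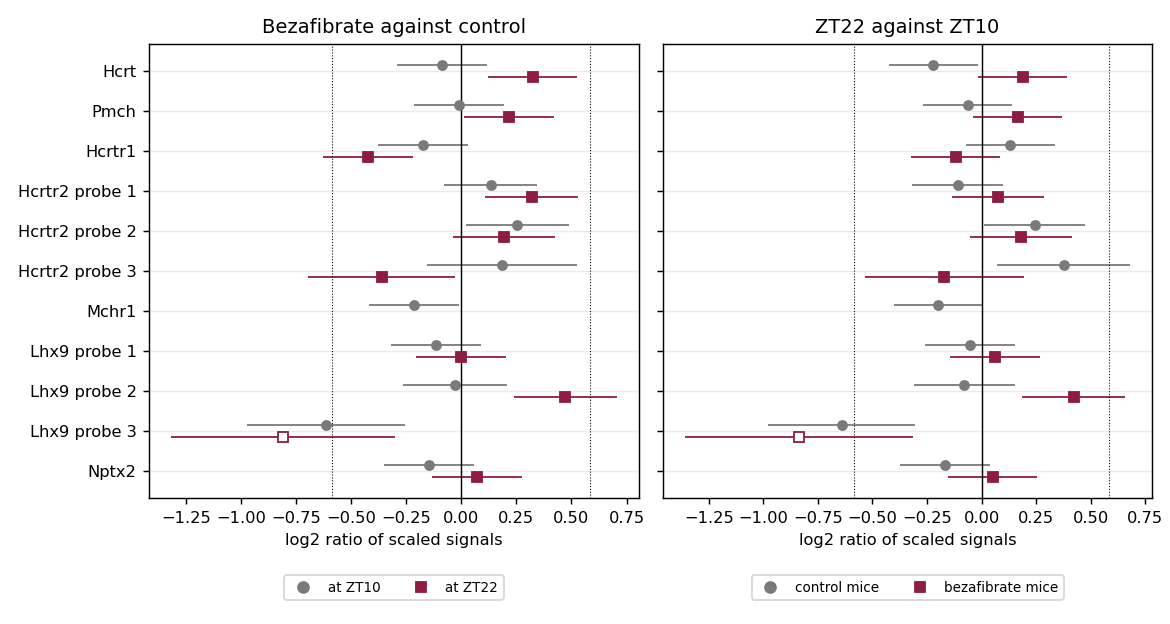
Log2 ratios of the 11 probes for bezafibrate against control (left) and ZT22 against ZT10 (right); points are 1 array over 1 array, bars the scanner error, dotted lines 1.5-fold, and open squares ratios with a signal not well above background. Hcrtr1 lies left of 0 at both times, at -0.17 and -0.42, and Hcrt lies on opposite sides of 0 at ZT10 and ZT22, at -0.09 and 0.32.

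Bezafibrate against control at ZT10 asks how the drug moved these transcripts late in the light phase. Hcrtr2 was the one gene with a higher signal, at 0.13, and the 6 others were lower, from -0.22 for Mchr1 to -0.01 for Pmch. Their median log2 ratio was -0.12, against a median of 0.01 over all genes, for which 5% lay below -0.32 and 5% above 0.25. Of all genes, 52.7% were above 0. Mchr1 alone passed 1 scanner error, which had a median of 0.20 over all genes. The share of all genes that passed it was not computed, here or in the comparisons below.

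Bezafibrate against control at ZT22 asks the same late in the dark phase. Hcrt and Hcrtr2 were higher by 0.32 each, Pmch by 0.22 and Nptx2 by 0.07, while Hcrtr1 was at -0.42 and Lhx9 at -0.00. The median of the 6 genes was 0.14, against 0.01 over all genes, for which 5% lay below -0.33 and 5% above 0.31. Of all genes, 52.2% were above 0. Hcrt, Pmch, Hcrtr1 and Hcrtr2 passed 1 scanner error, with no share over all genes to set beside this. By brightest probe and with the scaling used, Hcrt and Hcrtr2 lay just beyond the upper 5% mark of all genes on this pair of arrays. Hcrtr1 lay beyond the lower 5% mark. The other Hcrtr2 probes were at 0.19 and -0.36, and the mean over all Hcrtr2 probes was 0.05.

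ZT22 against ZT10 in control mice asks how the transcripts changed with time of day without the drug. Hcrtr1 was higher at ZT22, at 0.13, and the 6 others were lower, from -0.22 for Hcrt to -0.05 for Lhx9. Their median was -0.11, against 0.03 over all genes, for which 5% lay below -0.34 and 5% above 0.41. Of all genes, 58.1% were above 0. Hcrt alone passed 1 scanner error.

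In bezafibrate mice Hcrtr1 was lower at ZT22, at -0.12, and the 5 other genes with a value were higher, from 0.05 for Nptx2 to 0.19 for Hcrt. The median of the 6 was 0.07, against 0.04 over all genes, of which 59.2% were above 0. No ratio passed 1 scanner error, and without scaling Hcrt was at -0.04. With the scaling used, the sign was opposite to that in control mice for each of the 6 genes by its brightest probe. The share of all genes with opposite signs was not computed, so this count has nothing to be set against. Without scaling all 6 were below 0 in bezafibrate mice, so that Hcrtr1 alone then differed in sign from control mice. With the mean of all its probes Hcrtr2 was above 0 in control mice too, at 0.17. Each array enters a diet ratio and a time ratio, so the 4 comparisons share arrays and are not independent. The median size of the log2 ratio over all genes was 0.07 to 0.11, below the typical scanner error of 0.20.

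Diet and time were also fitted together over the 4 arrays with limma, with Benjamini-Hochberg adjustment over 17539 genes. This additive fit takes the difference of the diet ratios between the times as error and left 1 residual degree of freedom. No gene passed an adjusted p of 0.05 by limma for diet or for time (percent called 0). An unadjusted limma p under 0.05 was found for 951 genes (5.42%) for diet and 1896 (10.8%) for time. For Hcrtr1 the fitted diet effect was -0.30 ± 0.10 (SE) on the log2 scale, with an adjusted p of 0.870 by limma. For Hcrtr2 it was 0.23 ± 0.08 (SE), with an adjusted p of 0.870 by limma. Hcrt had 0.12 ± 0.14 (SE) and Pmch 0.10 ± 0.09 (SE), with adjusted p of 0.906 and 0.880 by limma. Lhx9 had an adjusted p of 0.894 and Nptx2 of 0.953 for diet by limma, and the adjusted p for time ran from 0.749 for Nptx2 to 0.976 for Lhx9. Mchr1, with a value on 3 arrays, was not fitted.

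**Figure D3:**
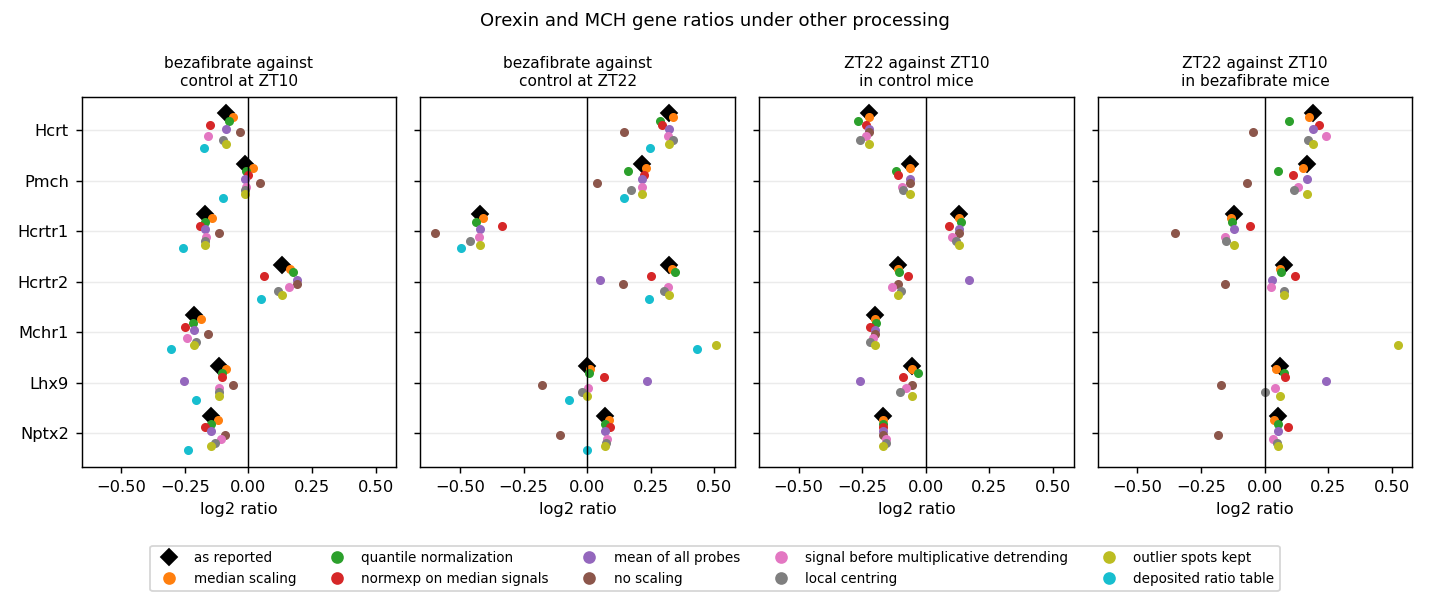
Log2 ratio of each gene in the 4 comparisons as reported (black diamonds) and under each alternative processing (coloured points). Hcrtr1 stays left of 0 in both diet comparisons, between -0.60 and -0.12, while Hcrt in bezafibrate mice crosses 0 without scaling, at -0.04.

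Genes that process, accompany or transmit these peptides were read from 8 lists that together held 88 genes other than those above. At ZT10, 0 of 86 passed 1.5-fold between the diets, against 3.8% of all genes, and at ZT22, 3 of 87 did, against 5.51%. Between the times, 4 of 86 did so in control mice, against 6.48%, and 3 of 87 in bezafibrate mice, against 5.46%. No share lay above that over all genes. Otp, Foxa2 and Lmx1b, each dim on 1 array of some pair, entered those pairs with the dim signal at its limit. The medians over the genes tested ran from 0.02 to 0.04 on the log2 scale.

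Precursor processing genes were nearly level, with medians from -0.06 to 0.05 over the 4 comparisons. Pam, the enzyme that amidates orexins and other peptides, had a log2 ratio of -0.90 ± 0.20 for ZT22 against ZT10 in control mice and -0.39 ± 0.20 in bezafibrate mice. Pcsk1n, which encodes the convertase inhibitor proSAAS, stayed between 0.01 and 0.08.

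Companions of orexin neurons had medians of -0.05 at ZT10 and 0.04 at ZT22 for bezafibrate against control, inside the scanner error, with 4 of 12 genes above 0 at ZT10 and 8 of 12 at ZT22. Over all genes, 52.7% and 52.2% were above 0, and most of the list genes counted by sign here and below passed no threshold. Pdyn, the dynorphin precursor that orexin neurons also make, had diet ratios of -0.30 ± 0.20 at ZT10 and 0.11 ± 0.20 at ZT22. These signs were those of Hcrt, but the time ratios of Pdyn did not have opposite signs. They were 0.04 ± 0.20 in control mice and 0.45 ± 0.20 in bezafibrate mice. Igfbp3, an insulin-like growth factor binding protein, had 0.02 ± 0.20 and 0.71 ± 0.20, and it was past 1.5-fold at ZT22. It was also higher at ZT22 than at ZT10 in bezafibrate mice, at 0.67 ± 0.20. Foxa2, a forkhead factor, was dim, not well above background in the control pool at ZT22, and had a ratio of -0.70 ± 0.39 for ZT22 against ZT10 in bezafibrate mice. Nptx1 was on this list and on that of pentraxins, and Scg2 and Slc17a6 stood on more than 1 list as well.

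Companions of MCH neurons were higher with bezafibrate for 4 of 7 genes at ZT10 and 4 of 8 at ZT22. Cartpt, the CART peptide precursor that many MCH neurons make, had diet ratios of -0.36 ± 0.20 and -0.19 ± 0.20, unlike Pmch. Among other peptides of the same region, 4 of 9 were higher with bezafibrate at each time, and Penk, the enkephalin precursor, had -0.01 ± 0.20 and 0.44 ± 0.20. Tac1, which stood on this list and on that of striatum markers, had 0.07 ± 0.20 and 0.37 ± 0.20. The striatum markers had a median of 0.50 for diet at ZT22, and the part of that tissue in these peptide ratios was not tested.

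Downstream of the orexin receptors, 12 of 16 genes of Gq and calcium signalling were higher with bezafibrate at ZT22, with a median of 0.06. Plcb2, a phospholipase C, had a low signal, at 0.0367, 0.0333, 0.0738 and 0.0338 times the 75th percentile. It went the other way at -1.13 ± 0.25, and its time ratio in control mice was 1.01 ± 0.23. Both ratios rest on its higher spot on the control ZT22 array, and its time ratio in bezafibrate mice was 0.02 ± 0.29. Itpr1, the IP3 receptor, had a diet ratio of 0.20 ± 0.20 at ZT22. Of 12 genes of Gi and cAMP signalling, through which Mchr1 also acts, 5 were higher at ZT22, and Prkaca, the catalytic subunit of protein kinase A, was at -0.08 ± 0.20. Of 9 other pentraxin and AMPA receptor genes, which act with Nptx2, 3 were higher at ZT22, and Gria1 was at -0.03 ± 0.20. Of 14 LIM factors and cofactors related to Lhx9, 11 were higher at ZT10 and 10 at ZT22, with medians of 0.13 and 0.08. Lmo4, a LIM-only cofactor, had 0.18 ± 0.20 and 0.14 ± 0.20, and Lhx4 passed 1.5-fold for ZT22 against ZT10 in control mice at -0.60 ± 0.29.

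**Figure D4:**
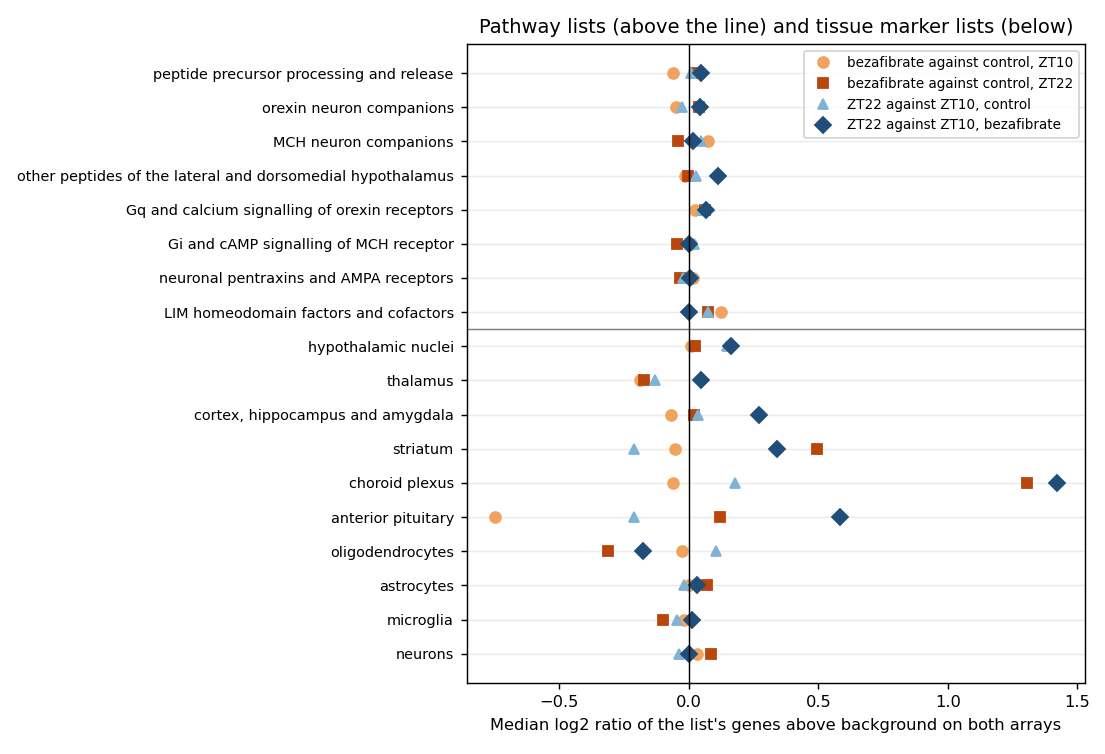
Median log2 ratio of each gene list in the 4 comparisons, over its genes well above background on both arrays. The 8 lists of peptide processing, neuron companions and signalling lie close to 0, while the choroid plexus list reaches 1.30 and the striatum list 0.50 for bezafibrate against control at ZT22.

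Markers of tissue next to the hypothalamus differed between the same pools in which Hcrt, Pmch and the receptors were read. At ZT22, where Hcrt was at 0.32 and Hcrtr1 at -0.42, choroid plexus markers were higher with bezafibrate for 8 of 9 genes, with a median of 1.30 and a summed level of 5.95 to 9.63 over the arrays. Ttr was at 3.76 and Kcne2 at 2.56. Striatum markers were higher for 10 of 11 genes, with a median of 0.50 and a summed level of 16.1 to 22.6. Ppp1r1b was at 0.96. Oligodendrocyte markers were lower for 11 of 11, with a median of -0.31 and a summed level of 229 to 264. Mog was at -0.51 and Opalin at -0.49. At ZT10, where 6 of the 7 genes had ratios below 0, anterior pituitary markers were lower for 8 of 8, with a median of -0.75 and a summed level of 10.1 to 20.8. Prl was at -4.48 and Gh at -3.72, and both were not well above background in the bezafibrate pool at ZT22, while Pou1f1 was well above background on no array. Thalamus markers were lower with bezafibrate for 13 of 14 genes at ZT10 and 12 of 14 at ZT22, with a summed level of 43.7 to 48.4, Tnnt1 at -1.10 and Ramp3 at -0.81 at ZT10, and Synpo2 at -0.48 at ZT22. Between the times in bezafibrate mice, where Hcrt was at 0.19, cortex, hippocampus and amygdala markers were higher at ZT22 for 13 of 13 genes, with a median of 0.27, a summed level of 45.8 to 59.7 over the arrays, and Slc17a7 at 0.85 and Wfs1 at 0.52. In the same comparison choroid plexus markers were higher for 9 of 9 (median 1.42), striatum markers higher for 10 of 11 (0.34) and oligodendrocyte markers lower for 10 of 11 (-0.18). Between the times in control mice, where Hcrt was at -0.22, striatum markers were lower at ZT22 for 10 of 11 (-0.21), anterior pituitary markers lower for 7 of 8 (-0.21) and thalamus markers lower for 11 of 14 (-0.13). The part of these tissues in the ratios of the orexin and MCH genes was not tested. Markers of hypothalamic nuclei had medians of 0.01 and 0.02 for diet at ZT10 and ZT22, and of 0.15 and 0.16 for time in control and bezafibrate mice. Single markers lay away from these medians. For diet, 1 passed 1.5-fold higher (Agrp at 0.98) and 1 lower (Six6 at -0.63) at ZT10, and 3 passed higher at ZT22 (Agrp at 1.68, Rax at 0.87 and Otp, dim in control). These were picked after their values were seen. Neuron markers had diet medians of 0.03 and 0.09. Diet medians of astrocyte and microglia markers lay between -0.10 and 0.07.

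Likeness of pattern was measured as the Euclidean distance between log2 profiles over the 4 arrays, each centred on its mean, among 14616 named genes. The nearest to Hcrt were Zfp934 at 0.01, Sez6 at 0.03 and Txnip at 0.04. Those nearest to Pmch were Rfc3, St8sia3 and Tmtc1, to Hcrtr1 Ldlrad3, Treml1 and Adam28, and to Hcrtr2 Nin, Patl2 and Crabp1. Lhx9 was nearest to Myadm, Mex3d and Rab3c, and Nptx2 to Rfx5, Myh8 and Ptpn5. Pmch lay at a distance of 0.11 from Hcrt, with 1.21% of genes closer to Hcrt, and Hcrtr1 lay at 0.53, with 92.0% of genes closer. Seen from Pmch, 8.36% of genes were closer than Hcrt. Hcrtr2 lay at 0.16 from Hcrt, with 3.99% of genes closer, and at 0.14 from Pmch, with 18.1% closer. Hcrtr1 and Hcrtr2 were 0.57 apart. With 4 arrays many genes share any profile, so these distances are descriptions.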

How the data were processed

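RNA of 4 pools was measured, 1 one-colour array each. The members and gene lists were chosen with earlier results of these data known. Per the file headers, the authors used Feature Extraction 9.5.1.1 on each scan. Its deposited output is, per spot, an intensity after background subtraction and detrending, with no scaling across arrays, beside median intensities and other 0 or 1 marks (above background, saturated, low-gain scan, outlier). A further deposited table is, per the labels, a ratio of bezafibrate over control. Compared with the array files, it was linear, ran in that direction, and was offset from the processed ratio by a log2 constant, -0.14 (ZT10) and 0.10 (ZT22). Its column medians were 0.947 and 0.958, its scaling is not given in the sources used here, and it was an alternative only.

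The processed signal was divided by each array's 75th percentile and taken to log2, without control and outlier spots. A gene was its probe with the highest mean signal, named through accession or symbol with RefSeq names of GRCm38.p6. It was compared where 1 or both arrays had it well above background. A dim signal gave a bound. Folds are past threshold at 1.5. Effects over 4 arrays were fitted with limma 3.58.1 (R 4.3.3), and the counting and fit were tested on simulated data. Alternatives were median scaling, quantile normalization, normexp background (offset 50), a mean signal of at least 100, the mean of all probes, outlier spots kept and the deposited ratios. No scaling, the signal before multiplicative detrending, and centring on spots within 20 rows and columns were chosen after seeing the data. All genes above were named by a rule: every member, list genes past 1.5-fold above background on both arrays and the brightest of each pathway list, the 2 markers with the largest ratios of a tissue list of which over 80% had one sign (some are not reported here), and the 3 genes nearest in pattern.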

Additional observations from a re-analysis of the deposited data

Results flagged for a closer look

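Several ratios had opposite signs in the groups compared. None of these differences could be tested with 1 array per group, and the share of all genes with opposite signs was not computed. For Hcrt the diet ratio was -0.09 at ZT10 and 0.32 at ZT22, and the time ratio was -0.22 in control and 0.19 in bezafibrate mice. The difference was 0.41. Here and below, the difference for diet and that for time are the same contrast of the arrays, so they are equal by construction. Pmch had a difference of 0.23, from -0.01 to 0.22 for diet and from -0.06 to 0.17 for time, but its diet ratio at ZT10 changed sign under 3 alternatives, to 0.02 with median scaling, 0.04 without scaling and 0.00 with normexp background, and then both diet ratios were above 0. Nptx2 had a difference of 0.22, from -0.15 to 0.07 and from -0.17 to 0.05, and its diet ratio at ZT22 changed sign under 2 alternatives. The third Hcrtr2 probe had a difference of -0.55, from 0.18 to -0.36 for diet and from 0.38 to -0.17 for time. With normexp background this Hcrtr2 pattern turned round, with diet ratios of -0.04 and 0.19 and time ratios of 0.00 and 0.23. The second Lhx9 probe had a difference of 0.50, from -0.03 to 0.47 and from -0.08 to 0.42. For time alone, opposite signs were seen for Hcrtr1 (difference -0.25), the brightest Hcrtr2 probe (0.19) and the brightest Lhx9 probe (0.11). Without scaling, the time ratios in bezafibrate mice were below 0 for all 6 genes by their brightest probes, so that of these the opposite signs for time remained for Hcrtr1 alone.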

How the results depend on the processing

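No paired analysis was possible because each group was 1 array. Leaving out an array would leave a group empty. The 26 reported ratios of the 7 genes were read by brightest probe. Of these, 0 moved by more than the scanner error with median scaling, quantile normalization or normexp background. The same held with local centring and with the signal before detrending. Keeping outlier spots could move none of them, because no reported ratio uses the outlier Mchr1 spot. The deposited table gave 13 ratios, and 0 moved. The filter at a mean signal of 100 left 20 ratios, but it only drops genes and could not move a ratio. The Mchr1 ratios that need the outlier spot have no reported value to set against 0.51 for diet and 0.53 for time with outliers kept, and 0.43 for diet in the deposited table. Without scaling 6 of 26 moved, and with the mean of all probes 3 of 26. The 75th percentile of the bezafibrate ZT22 array was lower by a log2 difference of -0.18 than that of the control ZT22 array and -0.23 than that of the bezafibrate ZT10 array, and without scaling all genes carry this shift. At ZT22, 1 gene of the 7, Hcrtr1, then passed 1.5-fold between the diets at -0.60.

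Counts over all genes past 1.5-fold were lower under stricter handling of dim signals. For diet at ZT10 the count of 657 became 142 with normexp, 100 with a mean signal of at least 100 and 401 with the mean of all probes. For diet at ZT22, 935 became 198, 137 and 535. For time in control mice, 1129 became 280 with normexp and 217 with the filter. For time in bezafibrate mice, 916 became 212, 188 and 571 with the mean of all probes. The share of higher calls moved as well. For diet at ZT10 it was 37.4%, and 48.9% with quantile normalization. For diet at ZT22 it was 36.4%, and 18.1% without scaling, 51.5% with normexp, 55.5% with the filter and 48.4% in the deposited table. For time in bezafibrate mice it was 55.6%, and 21.2% without scaling, 75.9% with normexp and 68.1% with the filter. The limma fit called 0 genes with quantile normalization and over the 15916 genes above background on all arrays. With quantile normalization an unadjusted limma p under 0.05 was found for 924 genes (5.27%) for diet and 1947 (11.1%) for time. Over genes above background on all arrays it was found for 1011 (6.35%) and 2405 (15.1%). Low signal limits the dimmer probes of Hcrtr2 and Lhx9, whose scanner errors reached 0.52.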
